A study of Mus musculus with 12 samples.

Results

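The genes described here encode the subunits of the proteasome and the proteins that assemble, activate or inhibit it. They were taken as the rows of the count table whose Ensembl ID has a mouse symbol that begins Psma to Psmg followed by a number, leaving out Psmb8, Psmb9 and names ending in -ps, with at least 60 reads summed over 12 mice. That gave 47 genes of the 21959 in the table. Psmb11, a subunit of thymic epithelium, met the name rule but had fewer reads than the minimum. The values are read counts per gene from poly-A RNA of heart ventricles. The knockout group (Vps13c-cKO) was 6 male mice, 7 weeks old and fed chow, with a cardiac-specific loss of Vps13c. The control group was 6 male wild-type mice (WT) of the same age and diet. Vps13c encodes a large protein that carries lipid between organelle membranes. The sources used here do not state the Cre driver, the deleted exons, or whether WT mice carried floxed alleles or Cre. Each sample is 1 mouse.

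The proteasome is the main protease of the cytosol and nucleus and breaks down proteins tagged with ubiquitin. Its core particle is a barrel of outer alpha rings, which gate the channel, and inner beta rings, which hold the catalytic sites. A regulatory particle caps the barrel: the base contains a ring of ATPases that unfolds the substrate, and the lid removes the ubiquitin chain. In cells whose proteasomes fall short, the transcription factor NFE2L1 (also called NRF1) raises the subunit genes together, and in heart muscle the pathway clears sarcomere proteins marked by ubiquitin ligases such as Trim63.

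Libraries held 12484523 to 14188716 counts in Vps13c-cKO and 13348018 to 15562942 in WT. Genes detected numbered 15137 to 15406 in Vps13c-cKO and 14861 to 15024 in WT, without overlap. Mitochondrially encoded genes held 30.6% to 32.2% of counts in Vps13c-cKO and 29.2% to 31.4% in WT. The part of the difference in genes detected in the results below was not tested. The Vps13c level was 16.3 to 20.3 CPM (the gene's counts scaled to a common library size) in Vps13c-cKO, against 54.6 to 68.6 CPM in WT, so the labels held in every mouse. The 10 ventricular myocyte markers summed to between 61752 and 66647 CPM in Vps13c-cKO and between 63276 and 68946 CPM in WT. Of these 10, Tnni3, Myl2 and Tnnt2 were lower and Mybpc3 higher at an adjusted p under 0.05 by edgeR's quasi-likelihood test. The library of WT mouse 4 stood apart with 74.8 CPM of 5 atrial markers, against 4.40 to 8.76 CPM in the other libraries. The excess lay in Myl7, Myl4 and Sln, at 29.3, 31.3 and 8.24 CPM in that mouse. Bmp10 was at 0 CPM there, and Sbk2 at 6 CPM was within the range of the WT mice. Calls that change without this library are given where they arise. In bulk tissue, fewer cells of a type and less RNA per cell cannot be told apart. Fibroblast markers summed to between 1094 and 1188 CPM in Vps13c-cKO, against 944 to 1053 CPM in WT, and 6 of 9 were higher by the same test. Of 8 endothelial markers Cldn5 was lower, and of 7 tested markers of smooth muscle and pericytes Rgs5 and Pdgfrb were lower and Myh11 higher. The part of these cells in the small differences below was not tested.

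Because NFE2L1 acts on proteasome genes in mammals through the antioxidant response element, the promoters were searched for its core, TGACNNNGC, on both strands from 250 bases before to 50 after the start. The RefSeq promoter table (GRCm38.p6) held 39 of the 47 genes. The core was present in 6 of them (15.4%), against 14.0% of all 27025 genes with a promoter there. CCAAT, the site name of the factor NF-Y, was present on either strand in 33.3% of the proteasome promoters and 41.1% of all promoters. The 6 matches are shown because they include catalytic subunits of the core particle, with up to 10 bases on either side, 5′ to 3′ on the strand of the gene and the match in capitals.
Psmb5, chr14:54618024-54618052, minus strand: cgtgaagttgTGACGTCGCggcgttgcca
Psmb6, chr11:70525338-70525366, plus strand: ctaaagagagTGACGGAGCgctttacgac
Psmc6, chr14:45329587-45329615, plus strand: ccagccagtaGCTAAGTCAggcattgctc
Psmd12, chr11:107479278-107479299, plus strand: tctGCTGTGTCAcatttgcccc
Psmd9, chr5:123228149-123228177, plus strand: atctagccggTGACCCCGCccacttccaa
Psme4, chr11:30771758-30771786, plus strand: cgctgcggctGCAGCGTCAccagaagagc
In Psmb5, Psmb6 and Psmd9 the core reads forward along the gene, and in Psmc6, Psmd12 and Psme4 it lies on the opposite strand. None of the 3 genes that passed the test below is among the 6, and 2 of those 3, Psmc3 and Psmd3, had no entry in the table. A match of these letters is a description of the sequence and not a measured binding site.

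Proteasome transcripts differed little between knockout and WT ventricles. All 47 genes passed the filter on low counts, and the edgeR quasi-likelihood test, adjusted over 12384 genes, called 3 of them higher and 0 lower in knockout ventricles (threshold 0.05). That is 6.38% higher, against 5.65% of all tested genes higher and 5.10% lower, a share near the background. The 3 genes were Psmc3, Psmb10 and Psmd3. The log2 fold change (Vps13c-cKO minus WT) was above 0 for 38 of 47 genes (80.9%), against 50% of all tested genes. The median was 0.06 for the proteasome genes and 0.00 for all genes. At an unadjusted p under 0.05, 13 proteasome genes were higher (27.7%) and 1 was lower, 29.8% together. Of all tested genes, 12.1% were higher and 11.7% lower at that threshold, 23.8% together. The genes were not tested as a set. The differences were bounded as well as small: for 41 of the 47 genes the 95% interval of the difference lay within 1.25-fold either way. The 6 others were Psmb10 and 5 genes below 10 CPM in WT, namely Psma8, Psmc3ip, Psme2b, Psmg3 and Psmg4. Psme2b was at 9.67 CPM in WT. Psmd10, at 9.46 CPM in WT, had an interval within the bound.

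**Figure D1:**
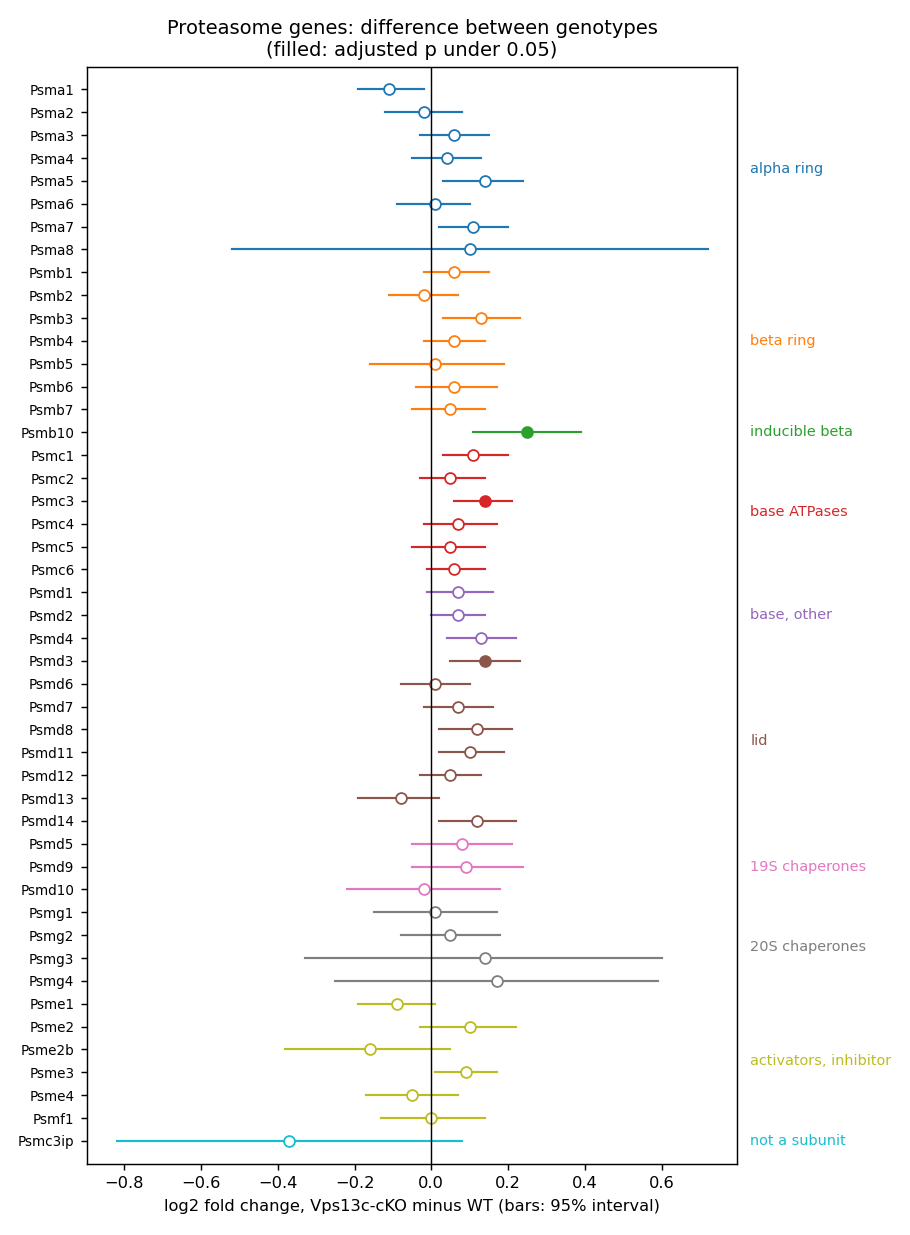
Log2 fold change (x axis, Vps13c-cKO minus WT) of the 47 genes (y axis), grouped and coloured by role, with 95% intervals as bars; filled points passed an adjusted p under 0.05. Most points lie slightly right of 0, and the 3 filled points are Psmb10, Psmc3 and Psmd3.

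**Figure D2:**
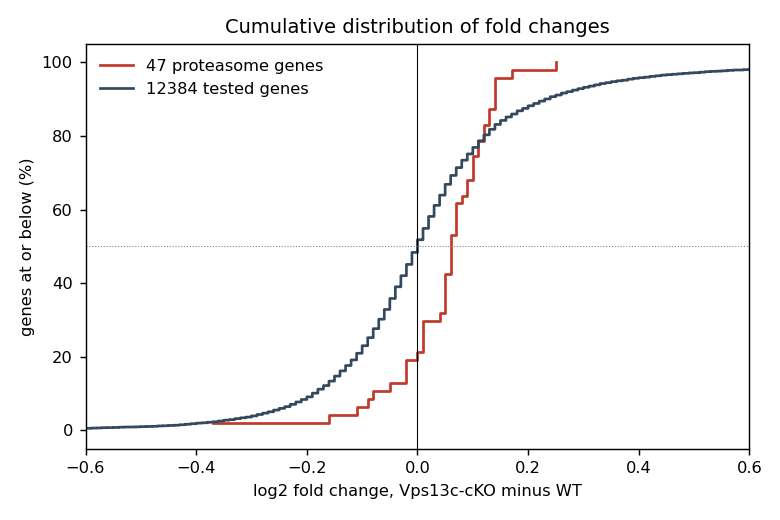
Cumulative share of genes (y axis, percent) at or below each log2 fold change (x axis, cropped at 0.6 either way) for the 47 proteasome genes and the 12384 tested genes. The proteasome curve crosses 50% at 0.06 and the curve of all genes at 0.00.

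Summed over the 46 genes other than Psme4, proteasome reads made up a lowest 0.279%, a median 0.285% and a highest 0.289% of the scaled library in Vps13c-cKO, and 0.260%, 0.275% and 0.282% in WT. The groups overlapped, with WT mouse 4 as the highest WT mouse and WT mouse 3 as the lowest. Psme4 was summed apart because that gene alone held more reads than any other on the list. With Psme4 included, the 47 genes made up 0.323%, 0.335% and 0.337% in Vps13c-cKO, and 0.307%, 0.323% and 0.334% in WT. The groups overlapped there too, with the lowest knockout mouse near the WT median.

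In the core particle, differences were small. The alpha ring genes summed to between 444 and 468 CPM in Vps13c-cKO and between 421 and 475 CPM in WT, and 0 of 8 passed the test (median log2 fold change 0.05). That median was 0.001 without WT mouse 3, and also lay over 1.5 times lower without Vps13c-cKO mouse 2 or 6. Psma1 was the member with the smallest p below 0. Its lowest, median and highest values were 76.7, 78.3 and 85.5 CPM in Vps13c-cKO, against 83.0, 83.8 and 90.5 CPM in WT. Of the knockout mice, 5 lay below every WT mouse and 1 among them, and the log2 fold change was -0.11 ± 0.04 (SE; adjusted p = 0.0949). Psma5 had 36.1, 37.2 and 39.4 CPM in Vps13c-cKO, against 30.4, 34.6 and 36.4 CPM in WT, with 4 knockout mice above every WT mouse. Its log2 fold change was 0.14 ± 0.05 (SE, adjusted p = 0.0886). Psma5 reads are less certain, since 50% of the 50-base stretches of its transcripts also occur in other annotated genes such as Gm8394, and how such reads were counted is not given. Of the other gate and wall subunits, Psma7 had 56.2, 59.1 and 63.1 CPM in Vps13c-cKO, against 50.4, 55.3 and 58.2 CPM in WT, and its log2 fold change of 0.11 ± 0.04 did not pass (SE, adjusted p = 0.129). Psma2, Psma3, Psma4 and Psma6 had log2 fold changes of -0.02, 0.06, 0.04 and 0.01, with groups that overlapped for each. Psma8, a form used in the testis, was near the lower limit at 0.732 ± 0.263 CPM in Vps13c-cKO and 0.677 ± 0.221 CPM in WT (SD, n = 6 each).

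Of the beta ring genes 0 of 7 passed (median log2 fold change 0.06), including the catalytic subunits. Psmb6, which carries the caspase-like site, had a log2 fold change of 0.06 with a 95% interval of -0.04 to 0.17. Psmb7, the trypsin-like site, had 0.05 with an interval of -0.05 to 0.14, and Psmb5, the chymotrypsin-like site and the target of bortezomib, had 0.01 with an interval of -0.16 to 0.19. Psmb5 was counted at 13.5, 15.9 and 16.9 CPM (lowest, median, highest) in Vps13c-cKO and 13.1, 15.5 and 17.7 CPM in WT. Its transcripts share 54.1% of their 50-base stretches with other genes, above all Gm3375, so its reads are uncertain in the same way. Psmb3, a structural subunit of the ring, reached 46.7, 48.1 and 51.5 CPM in Vps13c-cKO, against 39.9, 45.0 and 47.3 CPM in WT. The structural subunits Psmb1, Psmb2 and Psmb4 had log2 fold changes of 0.06, -0.02 and 0.06. In 5 of 6 knockout mice the Psmb3 level was above all WT mice, and the log2 fold change was 0.13 ± 0.05 (SE, adjusted p = 0.0908).

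Psmb10 had the largest fold change of the genes above 10 CPM in WT. It encodes an inducible catalytic subunit that takes the place of Psmb7 in the immunoproteasome. Its lowest, median and highest values were 20.6, 22.0 and 25.8 CPM in Vps13c-cKO, against 16.7, 19 and 20.7 CPM in WT. All but 1 knockout mouse lay above the highest WT mouse. The level was 22.6 ± 1.92 CPM in Vps13c-cKO and 19 ± 1.52 CPM in WT (SD, n = 6 each), which is 0.25 ± 0.07 on the log2 scale (SE, adjusted p = 0.0211). Without Vps13c-cKO mouse 1 the adjusted p was 0.0605, and without WT mouse 3 it was 0.0549. The other inducible subunits were at low level and did not pass. Psmb8 was at 2.64 ± 0.327 CPM in Vps13c-cKO and 2.73 ± 0.540 CPM in WT, and Psmb9 at 4.11 ± 0.942 CPM in Vps13c-cKO and 4.21 ± 1.27 CPM in WT (SD, n = 6 each). Their log2 fold changes from WT were -0.06 ± 0.16 and -0.05 ± 0.19 (SE). On the list of 11 immunoproteasome and antigen processing genes, which holds Psmb8, Psmb9, the peptide transporter genes Tap1 and Tap2 and the inducers Irf1 and Nlrc5, 0 passed (median -0.04; background 10.7% in either direction). Macrophage and monocyte markers were higher for 4 of 14 genes and lower for 0, and summed to between 366 and 436 CPM in Vps13c-cKO, against 299 to 419.6 CPM in WT. The 12 lymphocyte and neutrophil markers summed to at most 4.56 CPM in any mouse. The part of these cells in the Psmb10 difference was not tested.

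**Figure D3:**
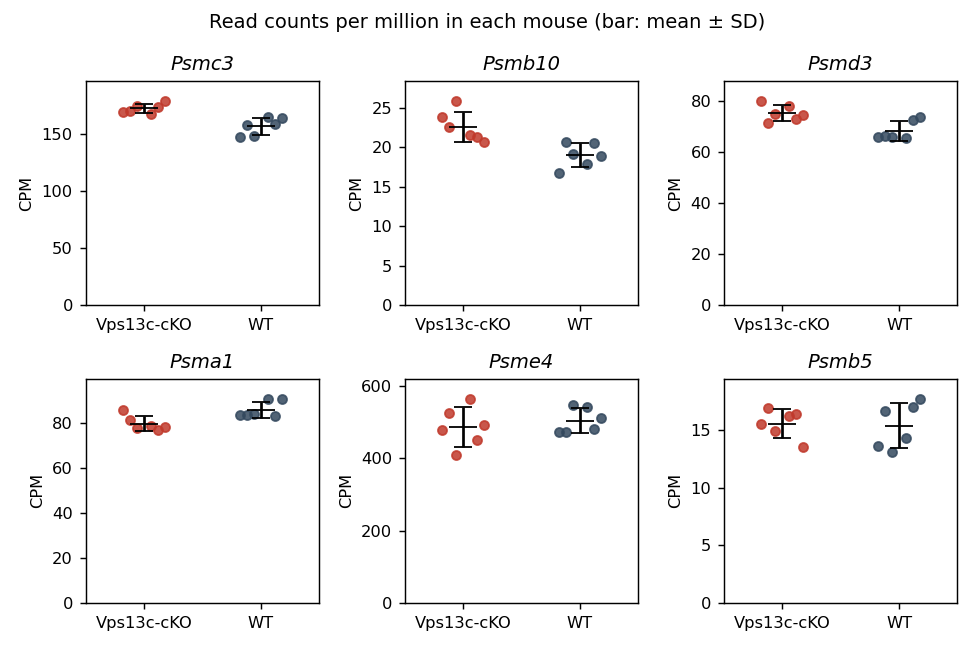
CPM (y axes from 0) of 6 genes in each mouse, Vps13c-cKO left and WT right; points are mice and bars are mean ± SD. Psmc3 separates the genotypes without overlap, and the groups overlap for Psmb10, Psmd3, Psme4 and Psmb5.

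In the base of the regulatory particle, all 6 ATPase genes had a log2 fold change above 0, from 0.05 to 0.14. Over all tested genes, 50% were above 0. Of the 6 genes, 1 passed the test as higher, against 5.65% of all tested genes. That gene, Psmc3, had 168, 172 and 179 CPM (lowest, median, highest) in Vps13c-cKO, against 148, 159 and 165 CPM in WT. It was the only one of the 47 genes whose groups did not overlap, where 2.75% of all tested genes were higher and 2.18% lower without overlap. The log2 fold change was 0.14 ± 0.04 (SE, adjusted p = 0.0186), and without Vps13c-cKO mouse 4 the adjusted p was 0.0556. Exons of Psmc3 overlap Slc39a13 on the opposite strand by 215 bases. Slc39a13 was at 13.6 ± 0.987 CPM in Vps13c-cKO and 12.9 ± 1.22 CPM in WT (SD, n = 6 each). The strand setting of the counts is not given, and the part of this overlap in the Psmc3 difference was not tested. Psmc1 had 119.9, 129 and 139 CPM in Vps13c-cKO, against 114, 121 and 124 CPM in WT, with 5 knockout mice above every WT mouse, and differed by 0.11 ± 0.04 on the log2 scale (SE, adjusted p = 0.0676, and 0.0324 without Vps13c-cKO mouse 6). The other ATPase genes, Psmc2, Psmc4, Psmc5 and Psmc6, had log2 fold changes of 0.05, 0.07, 0.05 and 0.06, and the groups overlapped for each. Among the base genes that are not ATPases, Psmd4, a receptor for ubiquitin chains, had 80.2, 83.9 and 91.6 CPM in Vps13c-cKO, against 71.7, 77.5 and 82.2 CPM in WT. Its log2 fold change was 0.13 ± 0.04 (SE, adjusted p = 0.0673). Without WT mouse 4, the mouse with raised Myl7, Myl4 and Sln, the adjusted p was 0.0418. The scaffold subunits Psmd1 and Psmd2 had a log2 fold change of 0.07 each, with intervals of -0.01 to 0.16 and 0.00 to 0.14.

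In the lid, 1 of 8 genes passed as higher, against 5.65% of all tested genes. Of the 8, 7 had a log2 fold change above 0 (median 0.09), against 50% of all tested genes. Psmd3, a scaffold subunit of the lid, had 71.6, 74.9 and 80.0 CPM (lowest, median, highest) in Vps13c-cKO, against 65.5, 66.2 and 73.7 CPM in WT. The groups overlapped, with 4 WT mice below every knockout mouse and 2 within the knockout range. The log2 fold change was 0.14 ± 0.04 (SE, adjusted p = 0.0370). This call was the least firm of the 3: leaving out 1 mouse at a time gave adjusted p-values of 0.0165 to 0.0920, and 4 of 12 stayed under 0.05. The call was lost without any 1 of Vps13c-cKO mice 1, 3, 4 and 6 and WT mice 1, 3, 5 and 6. Psmd14, the metalloprotease that cuts ubiquitin chains off the substrate, had 47.2, 48.8 and 50.2 CPM in Vps13c-cKO, against 40.6, 44.5 and 48.9 CPM in WT. All 6 knockout mice were above the WT median, and its log2 fold change was 0.12 ± 0.05 (SE, adjusted p = 0.113). Psmd8 and Psmd11 followed at 0.12 ± 0.04 and 0.10 ± 0.04 (SE, adjusted p = 0.106 and 0.109), with 4 and 5 knockout mice above every WT mouse. Psmd6, Psmd7 and Psmd12 had log2 fold changes of 0.01, 0.07 and 0.05. Psmd13 was the lid gene below 0, at -0.08 with an interval of -0.19 to 0.02.

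**Figure D4:**
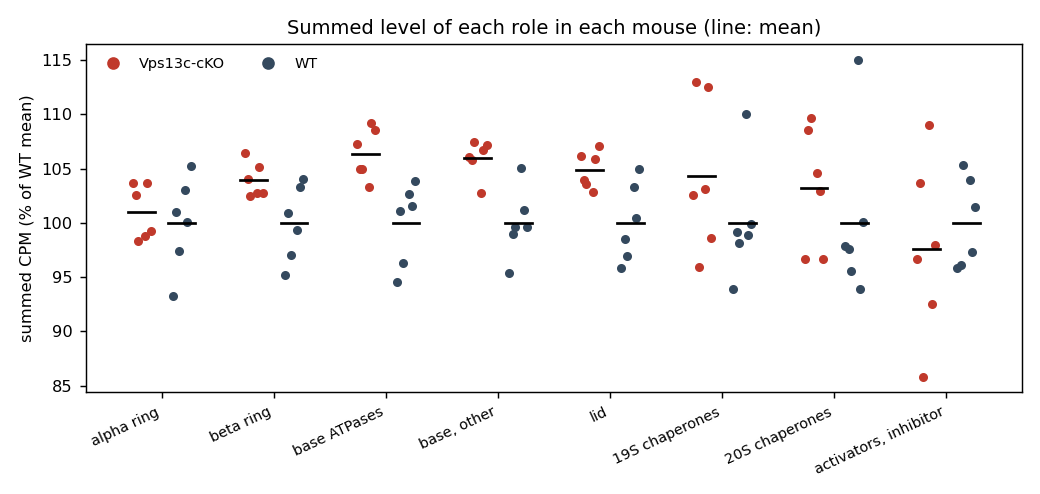
Summed CPM of the genes of each role with several genes in each mouse, as a percentage of the WT mean (y axis, which does not start at 0), with Vps13c-cKO left and WT right in each role and lines at the means. The base and lid sums lie mostly above WT but overlap it, and the activator sum, of which Psme4 is the largest term, runs from 593 to 753 CPM within Vps13c-cKO.

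Among the activators and the inhibitor, 3 of 6 genes had a log2 fold change above 0 and 0 of 6 passed. Their median was -0.02, and -0.041 to -0.008 when 1 mouse was left out. Psme4 encodes PA200, a large activator of the core particle that does not need ATP or ubiquitin. Its lowest, median and highest values were 409, 484 and 563 CPM in Vps13c-cKO, against 471, 495 and 546 CPM in WT. The knockout values spanned the whole WT range, and the log2 fold change was -0.05 with an interval of -0.17 to 0.07. In Vps13c-cKO mice 1 to 6 the Psme4 level rose with mouse number, at 409, 451, 477, 492, 525 and 563 CPM. The WT values followed no such order. This order was seen only after the values were known and was not tested. Psme1 and Psme2 form the interferon-inducible ring known as PA28. Psme1 was at 67.0 ± 3.5 CPM in Vps13c-cKO and 71.1 ± 4.49 CPM in WT, and Psme2 at 26.3 ± 1.58 CPM in Vps13c-cKO and 24.5 ± 1.89 CPM in WT (SD, n = 6 each). Their log2 fold changes had opposite signs, -0.09 ± 0.05 and 0.10 ± 0.06 (SE, adjusted p = 0.272 and 0.353). Psme2b, a near copy of Psme2, was at 8.68 ± 0.856 CPM in Vps13c-cKO and 9.67 ± 1.49 CPM in WT (SD, n = 6 each). Its log2 fold change was -0.16 ± 0.10 (SE, adjusted p = 0.365), opposite in sign to that of Psme2. Psme2b shares 69.3% of its 50-base stretches with other genes, and Psme2 shares 28.3%. Reads of the pair therefore cannot be fully told apart, which limits the sign of either gene. Psme3, the nuclear activator PA28 gamma, had 64.1, 67.3 and 70.9 CPM (lowest, median, highest) in Vps13c-cKO, against 61.5, 62.8 and 66.5 CPM in WT, or 0.09 ± 0.04 on the log2 scale (SE, adjusted p = 0.178). Psmf1, which encodes the inhibitor PI31, was at 18.5 ± 1.34 CPM in Vps13c-cKO and 18.5 ± 1.31 CPM in WT (SD, n = 6 each).

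The assembly chaperones did not pass either, 0 of 3 for the regulatory particle (Psmd5, Psmd9 and Psmd10) and 0 of 4 for the core (Psmg1 to Psmg4). Log2 fold changes ranged from -0.02 to 0.17. Psmg3 and Psmg4 were at 1.2 ± 0.349 and 2.01 ± 0.461 CPM in Vps13c-cKO, against 1.09 ± 0.198 and 1.78 ± 0.468 CPM in WT (SD, n = 6 each), and their intervals were correspondingly wide, from -0.33 to 0.60 and from -0.25 to 0.59. Psmc3ip met the name rule but encodes a meiotic recombination factor and not a proteasome protein. It was at 1.57 ± 0.548 CPM in Vps13c-cKO and 2.03 ± 0.434 CPM in WT (SD, n = 6 each), and differed by -0.37 ± 0.22 on the log2 scale (SE, adjusted p = 0.325).

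Levels of the subunits differed among themselves far more than between genotypes. Per kilobase of exon (GENCODE M21 exon union), Psma6 was highest at 76.5 ± 4.48 CPM per kb in Vps13c-cKO and 76.2 ± 4.19 CPM per kb in WT (SD, n = 6 each). Psmc1, Psmc3 and Psme4 came next in WT at 61.8 ± 2.32, 60.3 ± 2.78 and 60.1 ± 4.10 CPM per kb and did not differ beyond their spread. Per kilobase of the longest coding transcript, a length chosen after the first order was seen, Psma6 was again first in WT at 90.2 CPM per kb, and Psme4 was the third at 77.6. Catalytic Psmb6, Psmb7 and Psmb5 stood at 33.1, 17.2 and 17.3 CPM per kb of exon in Vps13c-cKO and 31.6, 16.6 and 17.1 in WT. Per kb of the longest coding transcript they stood at 77.6, 50.7 and 17.3 in Vps13c-cKO and 74.2, 49.1 and 17.1 in WT, so the order of Psmb7 and Psmb5 depended on the length used. The Psmb5 level is uncertain as well, because 54.1% of its 50-base stretches occur in other genes. That share is 9.26% for Psmb7 and 1.05% for Psmb6. Psmb10 was below Psmb7 by either length, at 13.2 CPM per kb of exon in Vps13c-cKO and 11.1 in WT. The lowest places, all below 10 CPM per kb of exon, went to Psmf1, Psma8, Psmc3ip and the assembly chaperones other than Psmg2. Psmg2 stood at 12.6 CPM per kb of exon in Vps13c-cKO and 12.1 in WT.

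**Figure D5:**
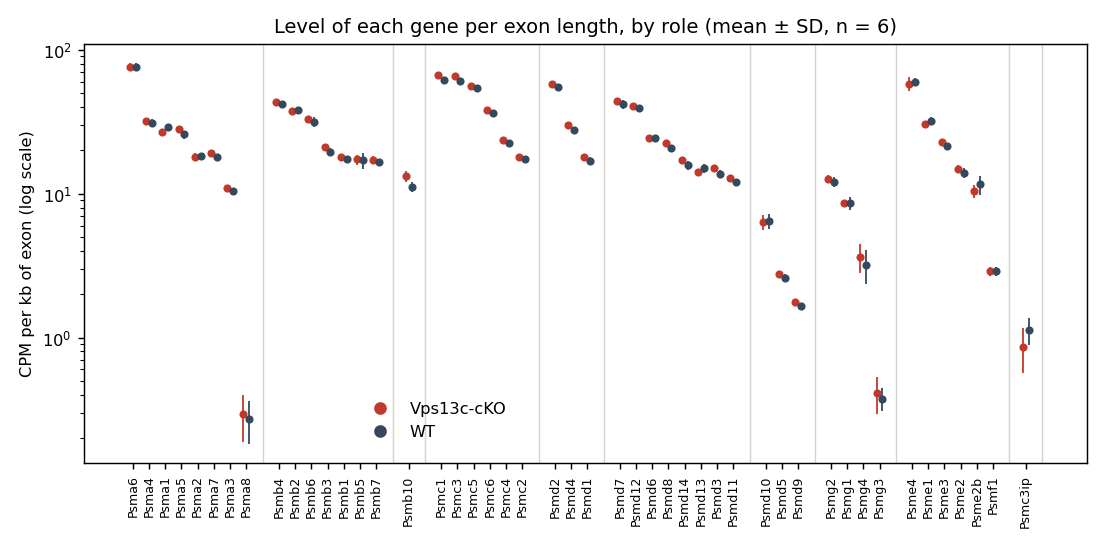
CPM per kb of exon (y axis, log scale) of each gene, ordered by level within its role, with Vps13c-cKO left of WT; points are means and bars SD of 6 mice. The ring, base and lid subunits lie within 10.4 to 76.5 CPM per kb apart from Psma8. The assembly chaperones other than Psmg2 lie below that range. Psmg2 lies within it, at 12.6 CPM per kb in Vps13c-cKO and 12.1 in WT.

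On chromosome 7, where 18.5% of tested genes were called in this comparison, 0 of the 4 proteasome genes passed (Psma1, Psmc4, Psmd8 and Psmd13). Their log2 fold changes were -0.11, 0.07, 0.12 and -0.08.

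Genes that work with the proteasome were counted by list. Of 21 tested partners without a Psm name, 1 was higher and 0 lower (median log2 fold change 0.06), against 5.65% of all tested genes higher. That gene was Pomp, the chaperone that completes the core particle, with 60.8, 65.5 and 68.7 CPM (lowest, median, highest) in Vps13c-cKO, against 55.7, 59.2 and 61.5 CPM in WT. The groups overlapped slightly, and the log2 fold change was 0.14 ± 0.04 (SE, adjusted p = 0.0340). The Pomp call was lost with the replicate block (0.0664), without the filter on low counts (0.0567), and without any 1 of Vps13c-cKO mice 1, 3, 5 and 6 and WT mice 1, 3, 5 and 6 (up to 0.0849). In each of those 8 leave-one-out fits 0 partners passed, and without WT mouse 4 there were 2. Adrm1, a ubiquitin receptor of the base, was at 36.2 ± 1.92 CPM in Vps13c-cKO and 35.9 ± 1.25 CPM in WT (SD, n = 6 each). Of 14 genes of the NFE2L1 pathway 2 were higher and 0 lower (median 0.03; background 5.65% higher and 5.10% lower), namely Nploc4, an adaptor of the segregase VCP, and Mafk, a small MAF partner of NFE2L1. Nploc4 had 75.2 to 86.5 CPM in Vps13c-cKO, against 67.5 to 74.3 CPM in WT, without overlap (log2 0.21 ± 0.04 SE, adjusted p = 0.00159). Mafk had 35.2 to 40.5 CPM in Vps13c-cKO, against 31.3 to 34.9 CPM in WT, also without overlap (0.18 ± 0.05, adjusted p = 0.0165), where 2.75% of all tested genes were higher without overlap. Nfe2l1 itself was at 509 ± 17.8 CPM in Vps13c-cKO and 526 ± 17.0 CPM in WT, and its relative Nfe2l2 at 77.8 ± 4.37 CPM in Vps13c-cKO and 74.5 ± 4.10 CPM in WT (SD, n = 6 each). Neither passed (adjusted p = 0.423 and 0.451).

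Of 20 muscle ubiquitin ligases 16 did not pass, 2 were higher and 2 lower, where 5.65% of all tested genes were higher and 5.10% lower. Leaving out 1 mouse gave 3 to 6 called. Trim63 (MuRF1), which marks sarcomere proteins, had 182, 194 and 204 CPM in Vps13c-cKO, against 200.5, 216 and 239 CPM in WT, with 5 of 6 knockout mice below every WT mouse (log2 fold change -0.17 ± 0.04 SE, adjusted p = 0.0103). Its relative Trim54 (MuRF3) went the other way, with 125, 129.8 and 139.9 CPM in Vps13c-cKO, against 110.0, 112 and 126 CPM in WT (0.19 ± 0.04, adjusted p = 0.00614). The p53 ligase gene Mdm2 was higher at 0.19 ± 0.04 (adjusted p = 0.00387) and Asb2 lower at -0.14 ± 0.04 (adjusted p = 0.0443). The Asb2 call was lost with the replicate block (0.0516), with upper-quartile scaling (0.0509), with a minimum mean of 5 CPM (0.0563), without WT mouse 4 (0.0895), and without any 1 of Vps13c-cKO mice 1, 2, 4 and 5 and WT mice 1, 2 and 5 (up to 0.107). Fbxo32 (atrogin-1) was at 278 ± 11.9 CPM in Vps13c-cKO and 272 ± 23.0 CPM in WT (SD, n = 6 each), with an adjusted p of 0.780.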

How the data were processed

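Poly-A RNA of 12 ventricles was sequenced, and the authors deposited raw counts, whole reads for each gene in each mouse with no normalization (per the file headers and the values). Per the submitters' processing notes, the tools included HTSeq 0.9.1, HISAT2 2.1.0 and fastp 0.22.0, and the build was GRCm39. No source used here states the annotation release, the strand setting or the handling of reads with several matches. Per the labels' protocols, fragments were enriched by PCR and no molecular identifier is named, so counts are taken as reads and not molecules. Groups and replicate numbers came from the sample titles, and the number of per-sample columns left unused was 0. Gene names, chromosomes, exon lengths, exon overlaps and shared 50-base stretches came from GENCODE M21 (another build than the counts, so no coordinates are taken from it), and 21851 of 21959 IDs had a name. Promoters are from RefSeq.

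Genes kept by filterByExpr (12384) entered edgeR 4.0.16 (R 4.3.3), whose quasi-likelihood test is two-sided, with TMM factors, and p-values were Benjamini-Hochberg adjusted over all of them, with a threshold of 0.05. CPM values use TMM-scaled library sizes. Standard errors are the log2 fold change divided by the root of F. The test was run first on simulated counts with known changes, and its recovery of them is not reported here. Members and lists were chosen with earlier results of these data known. Members named with values are the 8 with the smallest p and 11 fixed by role; other genes are a fixed set and the called genes of each list, and further members are named to account for all of them. Slc39a13 and the wide-interval members were chosen after their values were seen. Chi-square per gene between replicates was 2.87 to 5.09, so no pair was counted as 1 library. Alternatives tried were DESeq2 1.42.0, its size factors alone, limma-voom (limma 3.58.1), a robust prior, upper-quartile scaling, other filters, dropping mitochondrially encoded genes, a replicate block, and leaving out each mouse. The list of ubiquitin supply genes is not reported here. P-values set the difference between groups against the spread between these mice only, which the test estimates with information shared across genes.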

Additional observations from a re-analysis of the deposited data

Results flagged for a closer look

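Among 94 groups of 6 mice (47 genes in 2 genotypes), 4 held 1 mouse far from the other 5, where chance gives about 1 in 20. Psmc4 was low in WT mouse 3 at 43.8 CPM. Psmd11 was low in WT mouse 1 at 70.7 CPM. Psmd1 was high in WT mouse 6 at 136 CPM. Psmg3 was high in Vps13c-cKO mouse 1 at 1.91 CPM. None of the 4 genes passed the test between genotypes.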

How the results depend on the processing

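Psmc3 and Psmb10 passed under all 9 alternatives that kept every mouse, and Psmd3 under 7 of 9. Leaving out 1 mouse gave 1 to 4 proteasome genes higher: Psmc3 alone without Vps13c-cKO mouse 1 or WT mouse 3, Psmb10 alone without Vps13c-cKO mouse 4, and all of the 3 plus Psmd4 without WT mouse 4. The cause was not tested. No setting called a proteasome gene lower, and their median log2 fold change stayed between 0.049 and 0.069. Same-numbered mice did not deviate together (correlations -0.04 to 0.06, 2 of 12 mice closest to their own number). The sample titles name no pairing, and these correlations cannot show that none exists. With the replicate block 2 proteasome genes were higher, Psmd3 having an adjusted p of 0.0584, and without the filter Psmd3 had 0.0594. Values near 0 that never passed changed sign. The log2 fold change of Psmf1 was -0.0003 under DESeq2 and -0.005 without the filter. With 1 mouse left out, Psmf1 ran from -0.03 to 0.029, Psmb5 from -0.029 to 0.055, Psmb8 from -0.155 to 0.003, Psmb9 from -0.188 to 0.043, Adrm1 from -0.007 to 0.038 and Fbxo32 from -0.01 to 0.061. Genes of low level, such as Psma8, Psmg3 and Psmg4, are limited by depth. Without the 4 members that share 25% or more of their 50-base stretches, an alternative chosen after seeing the data, the median was 0.063.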
